A study of Mus musculus with 2 samples.

Results

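The IL-1 family apart from IL-33 is described here by 9 genes, taken as a fixed list from the 27998 genes of the deposited matrices: the cytokines Il1a, Il1b and Il18, the antagonist Il1rn, and the receptor chains Il1r1, Il1rap, Il1r2, Il18r1 and Il18rap. All 9 had UMIs (unique molecular identifiers, each standing for 1 captured RNA molecule), from 556 for Il1rn to 24022 for Il1b over both libraries. The cells were taken from the dura, the outermost of the membranes that wrap the brain, of mice at postnatal day 14 and were read by droplet single-cell RNA sequencing. There was 1 library from Il33-deficient mice (KO, Il33mcherry/mcherry) and 1 from heterozygous controls (het, Il33mcherry/+), so both groups carry the H2B-mCherry allele at Il33 and the het mice keep an intact copy. For each genotype, tissue was pooled from 5 to 8 mice of each sex. The loaded mix held 1 part sorted lymphocytes (CD45+CD11b-), 1 part sorted stromal cells (gp38+CD31-) and 2 parts of all viable cells, so it can set the share of every class.

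IL-1 alpha and IL-1 beta are cytokines of early inflammation that act through the same receptor, made of the ligand-binding chain IL1R1 and the accessory chain IL1RAP. IL1RN competes with them for IL1R1 without signalling, and IL1R2 is a decoy that binds IL-1 but lacks the signalling domain. IL-18 acts through IL18R1 and IL18RAP, mainly on lymphocytes, where it can raise interferon gamma. Both receptors signal through MYD88 to NF-kB, and IL-1 beta and IL-18 are made as precursors that caspase-1 cuts in inflammasomes.

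The authors annotated 6594 of 12046 KO barcodes (54.7%) and 5950 of 10936 het barcodes (54.4%), with medians of 12204.5 UMIs per annotated KO cell and 12746.5 per het cell. The libraries shared 36 barcodes, 14 of them annotated. Il33 itself, over the stromal clusters 0, 4, 5 and 7, stood at 20.4 CPM in KO and 97.04 in het, a ratio of 0.210 (95% interval 0.195 to 0.226). A level is given in CPM, the sum of a gene's UMIs over the cells of a class divided by all UMIs of that class and library and scaled to 1e6. A difference is called where the libraries differ by at least 1.5-fold with at least 20 UMIs over both. Intervals are exact 95% intervals that cover counting error only. With 1 library per genotype there is no test, and genotype, animals, sort and preparation cannot be told apart. Each library also pooled its animals, and fewer expressing cells and less RNA per cell are told apart below only by shares of cells.

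Classes are the 22 deposited clusters, with cluster 9 divided by the authors' names into ILC2s (group 2 innate lymphoid cells), NK, Tcells and gdTcells (gamma-delta T cells), which makes 25. By fixed markers, clusters 1, 2, 6, 10 and 16 were B cell-like, 3 macrophage-like, 4 osteolineage-like, 5 arachnoid barrier-like, 7 fibroblast-like, 8 blood endothelial-like and 14 dendritic cell-like. Cluster 12 was mast cell or basophil-like and 13 neutrophil-like. All 4 granulocyte progenitor markers were also at least 2-fold above the other cells in cluster 12. The monocyte-like cluster was 18, and 20 carried pericyte or smooth muscle markers. Cluster 0 (led by Slc47a1, Cxcl14 and Smoc1), 11 (Cd209a, Cd209d and Tnip3), 15 (Schwann cell and oligodendrocyte markers), 17 (Igfbpl1, Neurod1 and Cntn2), 19 (Stoml3, S100a5 and Fstl5) and 21 (Pde6g, Gnb3 and Spink4) are given by number. In cluster 13 all 8 macrophage markers were also at least 2-fold above the other cells, as were all 3 T cell and all 3 gamma-delta T cell markers in NK.

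The bases before the start sites of Il1a, Il1b and Il18 are shown because of their calls in myeloid clusters 3, 11, 13, 14 and 18. Il1a was called lower in KO in clusters 3, 11 and 13, Il1b in clusters 3 and 11, and Il18 in none. In cluster 14 Il1a was called higher, and in cluster 18 it had no UMI. Il1b was called neither way in clusters 13, 14 and 18. Il1a and Il1b lie near each other on the minus strand of chromosome 2 (129299610 to 129309972 and 129364570 to 129371139), and Il18 lies on the plus strand of chromosome 9 (50554827 to 50581840), all in GRCm38. The RefSeq start of Il18 lies upstream of this annotated start. The 250 bases upstream of each RefSeq start (GRCm38.p6) are chr2:129309973-129310222 (minus strand) for Il1a, chr2:129371140-129371389 (minus strand) for Il1b and chr9:50554450-50554699 (plus strand) for Il18. Capitals mark matches, on either strand, to GAGGAA (bound by PU.1, a factor of myeloid cells) and to TATAAA (bound by TBP, which places the start of transcription).
Il1a: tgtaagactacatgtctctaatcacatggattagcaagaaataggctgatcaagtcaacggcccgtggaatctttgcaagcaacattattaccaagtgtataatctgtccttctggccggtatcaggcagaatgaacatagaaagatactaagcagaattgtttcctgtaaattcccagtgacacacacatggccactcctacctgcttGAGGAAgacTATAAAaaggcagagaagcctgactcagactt
Il1b: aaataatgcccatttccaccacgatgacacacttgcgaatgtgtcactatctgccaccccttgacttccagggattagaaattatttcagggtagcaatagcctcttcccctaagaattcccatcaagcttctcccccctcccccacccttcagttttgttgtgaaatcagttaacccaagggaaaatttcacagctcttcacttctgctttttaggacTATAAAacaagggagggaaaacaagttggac
Il18: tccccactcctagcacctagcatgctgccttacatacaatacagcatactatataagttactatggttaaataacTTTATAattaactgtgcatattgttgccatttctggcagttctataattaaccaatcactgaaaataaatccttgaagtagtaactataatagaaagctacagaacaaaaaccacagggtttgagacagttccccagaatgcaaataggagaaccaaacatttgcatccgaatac

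Il1a and Il1b each held TATAAA on their own strand shortly before the start, at bases -32 to -27 in Il1a and -31 to -26 in Il1b. Il18 held no TATAAA there, and its match was on the other strand at -175 to -170. Il1a also held GAGGAA at -41 to -36. Of all 32817 RefSeq promoter windows of this length, 12.4% held TATAAA and 23.3% held GAGGAA on either strand. A spaced NF-kB motif, held by 17.6% of all windows, and the C/EBP motif TTGCNNAA, held by 9.57%, were in none of the 3 windows shown. A match is a run of letters and not a shown binding site, and a factor can bind letters that these patterns do not cover. TATAAA was added to the search after the sequences had been seen.

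**Figure D1:**
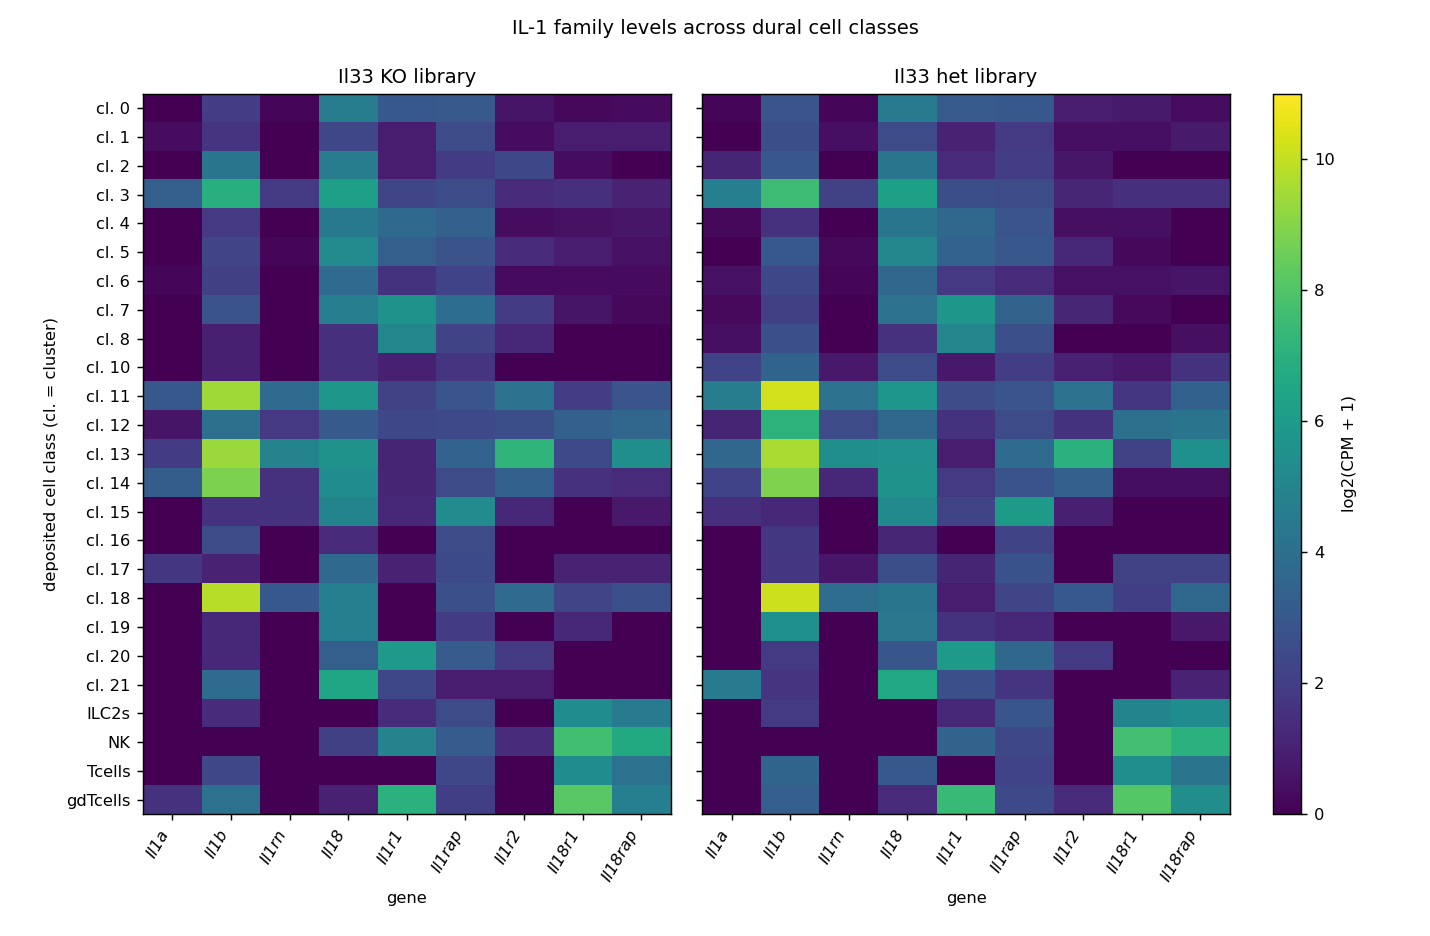
Levels of the 9 genes (columns) in the 25 cell classes (rows) as log2(CPM + 1), with the KO library on the left and the het library on the right. Il1b was highest in clusters 18, 11, 13 and 14, while Il18 had UMIs in myeloid and stromal clusters alike and Il18r1 was highest in gdTcells and NK.

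Il1b was the member most confined to myeloid clusters by its UMIs. Clusters 3, 11, 13, 14 and 18 together held 96.5% of its KO UMIs and 93.8% of its het UMIs. By the mean of both libraries it was highest in monocyte-like cluster 18, at 907 CPM in KO (856 to 961) and 1149 in het (1091 to 1210), a ratio of 0.789 (0.730 to 0.853). An Il1b UMI was present in 73 of 92 KO cells and 76 of 91 het cells there, or 79.3% and 83.5%. In this cluster the summed level of the 9 neutrophil markers also differed, 15115 CPM in KO and 3367 in het, none of them at 0 in KO and 1 at 0 in het, and its part in the result was not tested. Without the cells of highest doublet score the ratio was 1.01, and those were 11 of 92 KO cells and 4 of 91 het cells.

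In cluster 11 Il1b stood at 697 CPM in KO (675 to 719) and 1200 in het (1170 to 1230), a ratio of 0.581 (0.558 to 0.604). UMIs were present in 176 of 240 KO cells and 161 of 196 het cells, or in 36.2% and 48.6% with each cell thinned to 1000 UMIs. The ratio ran from 0.488 to 0.620 over the alternatives for cells, scaling and weighting, so it stayed past 1.5-fold in all of them. Median depth there was 19572.5 UMIs in KO and 23817 in het, and 51.7% of KO cells and 66.8% of het cells had the female label. Within that label the ratio was 0.620 (0.588 to 0.654) and within the male label 0.488 (0.458 to 0.519).

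In macrophage-like cluster 3 Il1b was at 118 CPM in KO (110 to 126) and 183 in het (174 to 193), a ratio of 0.645 (0.592 to 0.702). UMIs were present in 142 of 440 KO cells and 164 of 446 het cells, and the tenth of cells with most UMIs held 78.6% of the KO and 72.6% of the het UMIs. Il1b UMIs were thus seen in a minority of the cells of this cluster in both libraries. The ratio crossed to 0.703 without the cells of highest doublet score, to 0.732 within the female label and to 0.692 as a mean over cells, each short of 1.5-fold.

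Neutrophil-like cluster 13 had 643 CPM of Il1b in KO (618 to 668) and 770 in het (741 to 799), a ratio of 0.835 (0.791 to 0.881). Within the male label the ratio was 0.609 (0.559 to 0.662), within the female label 1.04 (0.965 to 1.11), and as a mean over cells 1.10. The cluster's direction therefore depended on which cells were counted. Dendritic cell-like cluster 14 had 459 CPM in KO (433 to 487) and 466 in het (442 to 492), a ratio of 0.985 (0.910 to 1.07).

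Cluster 13 was divided within each library at the median share of UMIs from Ngp, Camp and Ltf, granule genes of immature neutrophils. Among cells with fewer granule transcripts Il1b stood at 1117 CPM in KO (1070 to 1166; 90 cells) and 1365 in het (1306 to 1426; 84 cells). Among cells with more of them it stood at 231 CPM in KO (211 to 252; 90 cells) and 336 in het (312 to 363; 83 cells). Il1b was thus lower in the granule-rich cells of both libraries. The median shares were 0.782% in KO and 0.381% in het, with 10 KO cells and 15 het cells near them. The cut thus differed between the libraries, so KO and het cells on the same side of it need not be alike in granule transcripts. The sum of the 8 macrophage markers was 9279 CPM in KO and 10224 in het among cells with fewer granule transcripts, and 6082 in KO and 5095 in het among the others. The part of macrophage RNA in this difference was not tested.

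In mast cell or basophil-like cluster 12 Il1b stood at 15.8 CPM in KO (11.97 to 20.5) and 138 in het (126 to 151), a ratio of 0.114 (0.0852 to 0.151). It came from few cells, 12 of 214 in KO and 22 of 166 in het, and 31 of the 57 KO UMIs were in 1 cell. Cells with a UMI of Mcpt8, a basophil protease, held 6 Il1b UMIs in 5 of 22 KO cells and 356 in 10 of 29 het cells, which is 12.98 CPM (4.76 to 28.3) in KO and 760 (683 to 843) in het. The other cells of the cluster had 16.2 CPM (12.1 to 21.3) in KO and 37.7 (30.9 to 45.4) in het. Over the whole cluster the 8 mast cell and basophil markers summed to 5281 CPM in KO and 9601 in het, and the 8 macrophage markers to 317 in KO and 754 in het. Median depth was 9946.5 UMIs in KO and 17456 in het. The 4 granulocyte progenitor markers summed to 3328 CPM in KO and 5305 in het, and the 9 neutrophil markers to 1802 and 2694. Other lists went the other way, among them the 7 fibroblast markers at 2403 CPM in KO and 643 in het. Of these markers only 1 neutrophil and 1 fibroblast marker were at 0, both in het. The part of depth and of these lists in the result was not tested.

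**Figure D2:**
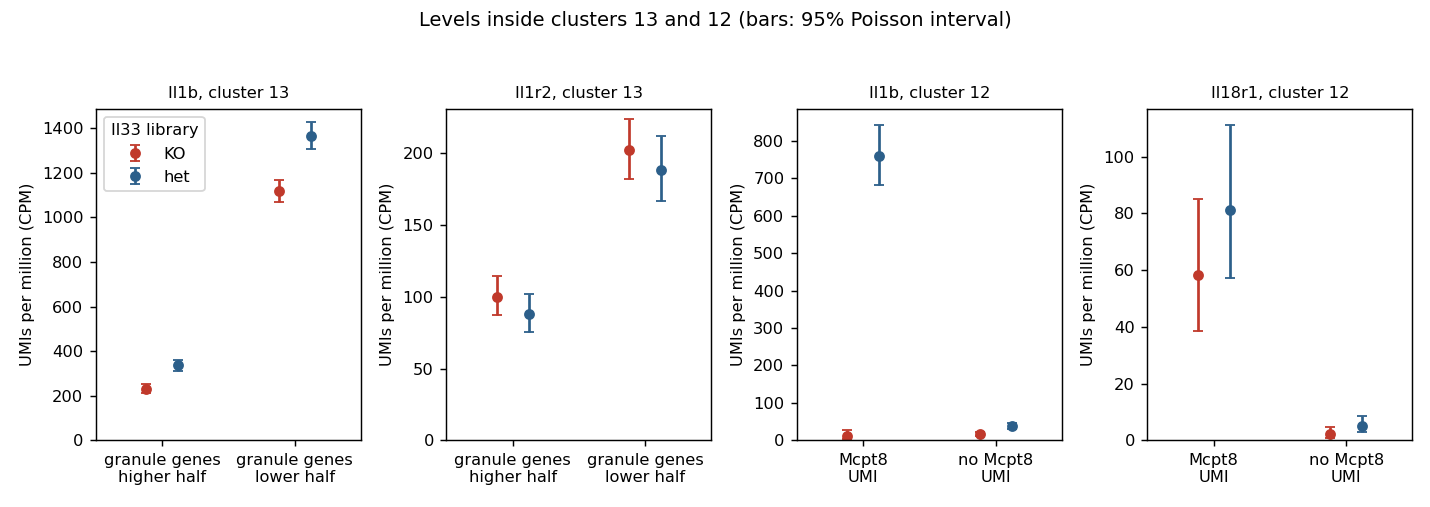
Levels in CPM with 95% Poisson intervals inside cluster 13, divided by the share of granule transcripts (Il1b and Il1r2), and inside cluster 12, divided by Mcpt8 UMIs (Il1b and Il18r1), with KO left of het. Il1b in Mcpt8 cells is at 12.98 in KO and 760 in het, and both Il1b and Il1r2 are higher in cells with fewer granule transcripts.

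Some further Il1b values rest on 1 cell each. In cluster 2 the level was 18.6 CPM in KO and 6.96 in het, but 51 of the 66 KO UMIs were in 1 cell and the ratio of 2.68 became 0.778 (0.365 to 1.63) with the top cell left out of both libraries. In cluster 19 it was 1.44 CPM in KO and 44.7 in het, with 60 of the 66 het UMIs in 1 cell. Beyond the 7 classes of highest level, Il1b lay between 0 and 18.6 CPM in KO and between 0 and 10.8 in het. B cell-like cluster 1, taken as a class that should lack these genes, had 2.19 CPM in KO and 5.32 in het, with a UMI in 0.273% of KO and 0.472% of het cells after thinning. Its median depth was 4178 UMIs in KO and 3934.5 in het.

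Il1a, the other IL-1 cytokine, was highest in macrophage-like cluster 3, at 9.05 CPM in KO (7.00 to 11.5) and 25.7 in het (22.2 to 29.5), a ratio of 0.353 (0.263 to 0.468). A UMI was present in 17 of 440 KO cells and 35 of 446 het cells, or in 0.866% and 2.16% after thinning to 1000 UMIs, against 0.0269% of KO and 0% of het cells of cluster 1 thinned alike. Most macrophage-like cells had no Il1a UMI in either library, and at this depth a cell that expresses the gene can show none. Of the KO UMIs, 20 of 66 were in 1 cell, and the ratio was 0.289 (0.204 to 0.403) with the top cell left out of both libraries. It ran from 0.289 to 0.429 over the alternatives, past 2-fold in each. Depth, sex labels and doublet scores were near each other in this cluster, with medians of 13590.5 UMIs in KO and 13928.5 in het, 44.5% and 50.2% female labels, and 28.0% and 30.9% of cells among those of highest doublet score. The 9 neutrophil markers summed to 90.1 CPM in KO and 231 in het, the 6 monocyte markers to 1077 and 1100, and the 7 fibroblast markers to 6896 and 7263. Of these only 1 neutrophil marker was at 0, in het, and their part in the Il1a and Il1b differences was not tested.

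Cluster 11 had 7.11 CPM of Il1a in KO (5.08 to 9.69) and 24.4 in het (20.3 to 29.05), a ratio of 0.292 (0.199 to 0.420), from 14 of 240 KO cells and 29 of 196 het cells. Cluster 13 had 2.71 CPM in KO (1.35 to 4.86) and 11.4 in het (8.14 to 15.5), a ratio of 0.238 (0.110 to 0.473). Its het UMIs came mostly from cells with fewer granule transcripts, at 4.25 CPM in KO and 23.0 in het. Dendritic cell-like cluster 14 went the other way, at 8.36 CPM in KO (5.17 to 12.8) and 3.68 in het (1.83 to 6.58), a ratio of 2.27 (1.05 to 5.22) from 21 KO and 11 het UMIs. With the top cell left out of both libraries this ratio was 2.24 (0.890 to 6.09), an interval that includes 1. In cluster 21 all 20 het UMIs were in 1 cell and KO had none. Outside the 7 highest classes Il1a did not exceed 2.07 CPM in KO and 1.89 in het.

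Many cells with an Il1a UMI also held Il1b. Of cells with an Il1a UMI, 13 of 14 KO cells and 28 of 29 het cells of cluster 11 also held Il1b, as did 7 of 7 and 20 of 20 in cluster 13. Il1b UMIs were also common there without regard to Il1a, in 73.3% of all KO cells and 82.1% of all het cells of cluster 11, and in 72.2% of KO and 74.9% of het cells of cluster 13. In macrophage-like cluster 3, Il1b was present in 4 of 17 KO cells and 19 of 35 het cells with an Il1a UMI, so most KO macrophage-like cells with Il1a had no Il1b UMI. Il1b UMIs were present in 32.3% of all KO cells and 36.8% of all het cells of that cluster. No test was made of these shares.

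Il1rn, the antagonist, was highest in neutrophil-like cluster 13, at 29.6 CPM in KO (24.5 to 35.4) and 43.0 in het (36.4 to 50.4), a ratio of 0.688 (0.537 to 0.881). UMIs were present in 74 of 180 KO cells and 75 of 167 het cells, or in 4.31% and 6.71% after thinning, against 0% of KO and 0.0352% of het cells of cluster 1 thinned alike. Among cells with fewer granule transcripts it was at 34.0 CPM in KO (26.2 to 43.4) and 61.5 in het (49.5 to 75.6), and among those with more at 25.8 (19.5 to 33.5) and 29.5 (22.5 to 38.0). The intervals of the libraries were apart in the cells with fewer granule transcripts and overlapped in the others, but the cut differed between the libraries. Cluster 11 had 13.5 CPM in KO and 16.8 in het, a ratio of 0.806 (0.584 to 1.11), and cluster 18 had 7.09 CPM in KO and 14.2 in het from 9 and 18 UMIs. Il1rn was at 2.49 CPM in KO and 4.76 in het in cluster 12, at 2.61 and 3.48 in cluster 3, at 1.99 and 1.34 in cluster 14, and at 2.05 and 0 in cluster 15. In the other 18 classes it stayed at or under 0.140 CPM in KO and 0.673 in het.

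Il18 differed from the IL-1 genes in where it was found. Myeloid clusters 3, 11, 13, 14 and 18 held 43.3% of its UMIs in KO and 49.9% in het, and stromal clusters 0, 4, 5 and 7 held 40.4% and 32.4%. Shares of UMIs, for this and the other members, depend in part on the number and depth of the cells in a cluster. The loaded mix can set that number. By CPM, Il18 was highest in cluster 21, whose leading genes Gnb3, Tph1 and Sag are known from the pineal gland. It stood there at 91.1 CPM in KO (74.8 to 110) and 95.01 in het (76.1 to 117). UMIs were present in 32 of 38 KO cells and 27 of 29 het cells, or in 8.88% and 9.56% after thinning, against 0.363% of KO and 0.421% of het cells of cluster 1 thinned alike.

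Il18 was measured in the same myeloid clusters. Macrophage-like cluster 3 had 72.7 CPM in KO (66.6 to 79.2) and 75.6 in het (69.6 to 82.0), a ratio of 0.961 (0.853 to 1.08). Cluster 11 had 55.0 CPM in KO and 54.6 in het, a ratio of 1.01 (0.853 to 1.19), and cluster 13 had 47.1 and 47.0, a ratio of 1.00 (0.810 to 1.24). In these 3 classes, where Il1a was past 2-fold lower, the Il18 intervals leave out a 1.5-fold difference either way. Cluster 14 had 40.2 CPM in KO and 49.5 in het, a ratio of 0.813 (0.625 to 1.05). Monocyte-like cluster 18 had 26.0 CPM in KO and 18.2 in het, a ratio of 1.43 (0.813 to 2.55). Within sex labels cluster 13 gave 1.28 (0.978 to 1.69) for female and 0.681 (0.476 to 0.974) for male cells.

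In stromal cells the Il18 ratios were above 1. Arachnoid barrier-like cluster 5 had 38.3 CPM in KO (34.0 to 43.0) and 33.1 in het (28.5 to 38.2), a ratio of 1.16 (0.960 to 1.40). Cluster 0 had 23.9 CPM in KO and 21.5 in het, a ratio of 1.11 (0.975 to 1.27), and osteolineage-like cluster 4 stood at 21.1 and 18.1, a ratio of 1.16 (0.892 to 1.52). Fibroblast-like cluster 7 had 25.3 CPM in KO and 16.9 in het, a ratio of 1.49 (1.12 to 1.99), just short of 1.5-fold and the only one of these 4 whose interval leaves out 1. Cluster 15 had 30.0 CPM in KO and 36.5 in het. In ILC2s no Il18 UMI was seen in either library, which allows up to 4.84 CPM in KO and 3.99 in het.

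**Figure D3:**
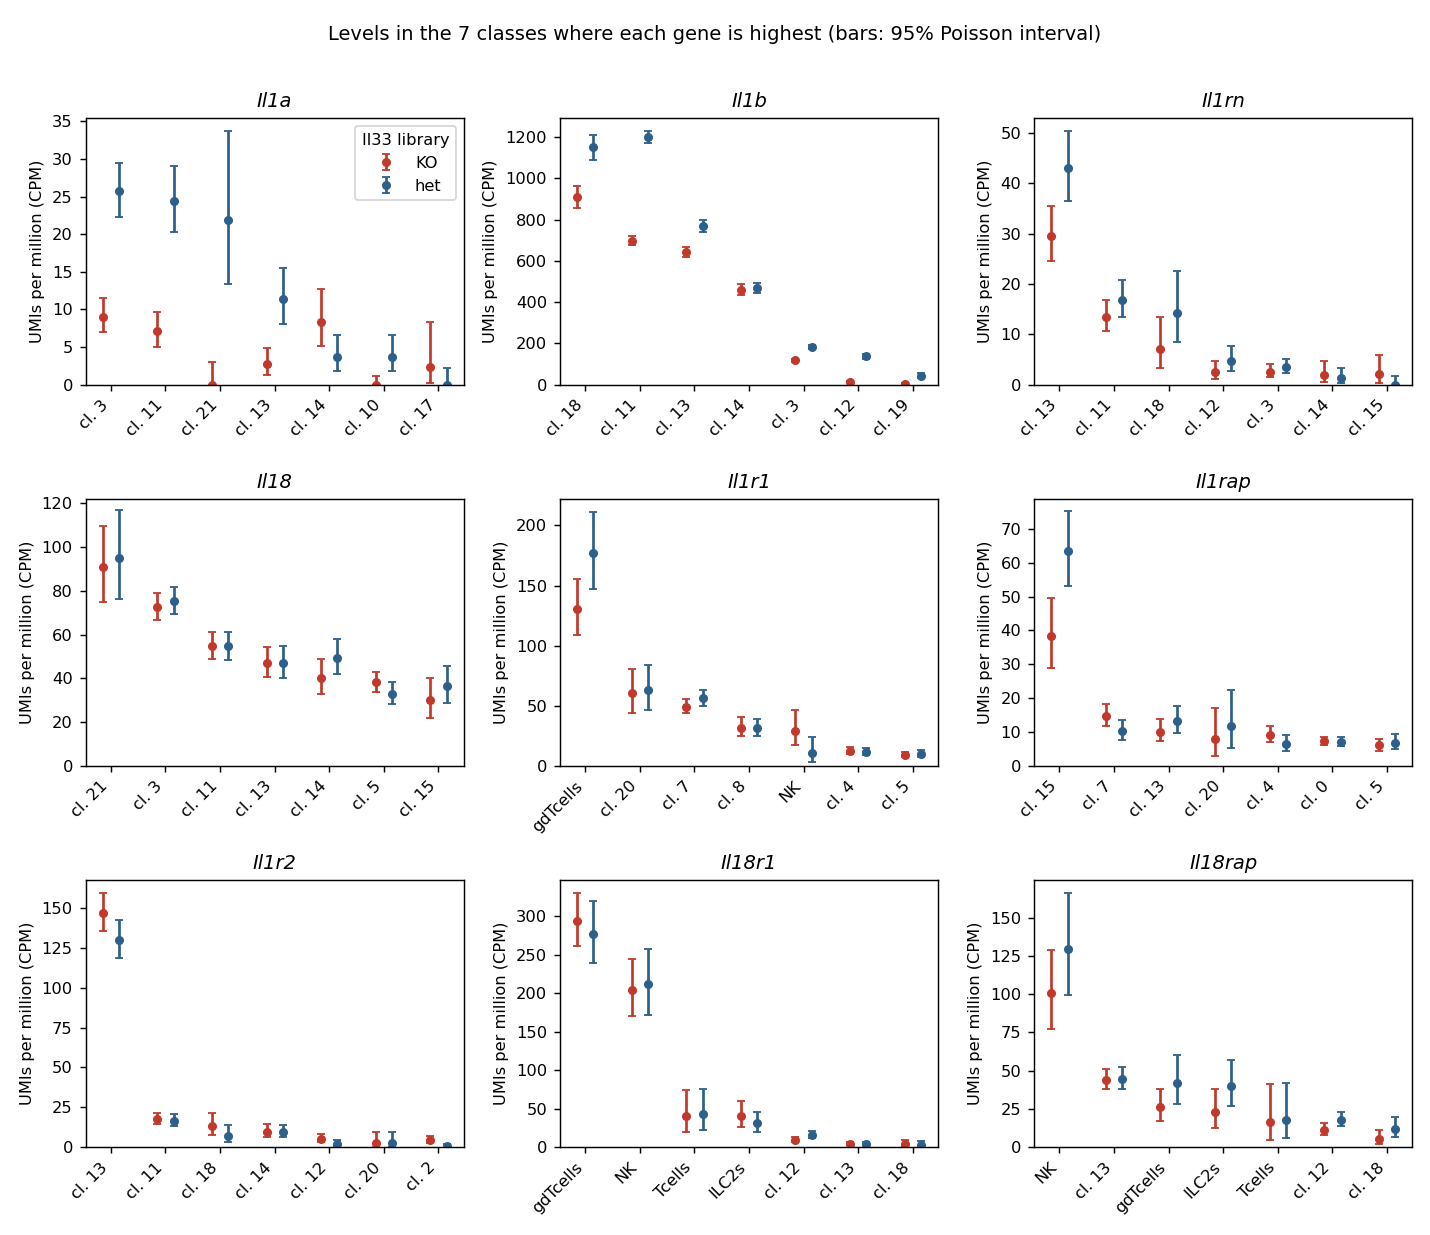
Levels in CPM with 95% Poisson intervals in the 7 classes where each gene is highest by the mean of both libraries, KO left of het. Il1a in cluster 3 is at 9.05 in KO and 25.7 in het, while the Il18 intervals of KO and het overlap in each class shown.

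Il1r1, the signalling receptor for IL-1, was highest in gdTcells, at 130 CPM in KO (109 to 155) and 177 in het (147 to 211), a ratio of 0.736 (0.569 to 0.952). A UMI was present in 62 of 102 KO cells and 54 of 76 het cells, or in 12.5% and 17.3% after thinning, against 0.0956% of KO and 0.177% of het cells of cluster 1. The ratio was 0.750 (0.520 to 1.08) within the female and 0.705 (0.487 to 1.03) within the male label. Gamma-delta T cells of barrier tissues are known to answer IL-1 by making IL-17, and the 3 gamma-delta T cell markers, among them Il17a, summed to 1920.5 CPM in KO and 1807 in het in this class. NK had 29.2 CPM of Il1r1 in KO and 10.46 in het from only 18 and 5 UMIs, 9 of the KO UMIs in 1 cell. In NK the 3 gamma-delta T cell markers summed to 120 CPM in KO and 54.4 in het, and the 3 T cell markers to 571 and 719. None of them was at 0, and their part was not tested. Tcells had no Il1r1 UMI, which allows up to 12.1 CPM in KO and 10.8 in het.

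Most Il1r1 UMIs lay in stromal and vascular cells. Clusters 0, 4, 5 and 7 held 61.6% of them in KO and 57.7% in het. Pericyte or smooth muscle-like cluster 20 had 60.5 CPM in KO (44.3 to 80.7) and 63.3 in het (46.7 to 84.0), a ratio of 0.955 (0.623 to 1.46). Fibroblast-like cluster 7 had 49.3 CPM in KO and 56.2 in het, a ratio of 0.877 (0.737 to 1.04), and endothelial-like cluster 8 stood at 31.9 and 31.3, a ratio of 1.02 (0.728 to 1.43). These classes showed no difference that was detectable beyond counting error. Osteolineage-like cluster 4 had 12.5 CPM in KO and 11.8 in het, cluster 5 had 9.13 and 9.90, and cluster 0 had 7.21 and 7.82.

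Il1rap, the accessory chain that the IL-1 and IL-33 receptors share, was highest in cluster 15, at 38.2 CPM in KO (28.9 to 49.7) and 63.5 in het (53.2 to 75.2), a ratio of 0.603 (0.433 to 0.829). A UMI was present in 33 of 103 KO cells and 50 of 122 het cells, or in 4.19% and 5.20% after thinning, against 0.423% of KO and 0.293% of het cells of cluster 1. The 5 oligodendrocyte markers, none at 0 in either library, summed to 19362 CPM in KO and 30428 in het in this cluster. The 9 neutrophil markers summed to 2287 CPM in KO, none at 0, and 26.99 in het, with 2 at 0. The part of both lists in the result was not tested. Median depth of the cluster was 8967 UMIs in KO and 12280.5 in het, with 30.1% and 63.1% female labels, and the ratio within the female label was 0.870 (0.568 to 1.30) and within the male label 0.623 (0.337 to 1.15).

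Elsewhere Il1rap was low and broad, and no class was at 0. Fibroblast-like cluster 7 had 14.7 CPM in KO (11.7 to 18.3) and 10.3 in het (7.59 to 13.6), a ratio of 1.43 (0.989 to 2.09). Neutrophil-like cluster 13 had 10.1 CPM in KO and 13.4 in het, cluster 20 had 7.89 and 11.9, cluster 4 had 9.26 and 6.56, cluster 0 had 7.39 and 7.11, and cluster 5 had 6.04 and 6.90. In gdTcells, where Il1r1 was highest, only 2 of 62 KO cells and 2 of 54 het cells with an Il1r1 UMI also held Il1rap. In cluster 7 this was 26 of 131 KO cells and 26 of 127 het cells. Depth differs between these classes, with medians of 8422.5 UMIs in KO and 7477.5 in het in gdTcells, and 17126 and 17513.5 in cluster 7.

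Il1r2, the decoy receptor, was mostly in neutrophil-like cluster 13, which held 597 of 833 KO UMIs and 457 of 641 het UMIs, at 147 CPM in KO (136 to 160) and 130 in het (118 to 143), a ratio of 1.13 (1.00 to 1.28). UMIs were present in 144 of 180 KO cells and 126 of 167 het cells, or in 19.0% and 18.5% after thinning, against 0.0182% of KO and 0.0280% of het cells of cluster 1. Il1r2 followed the same order as Il1b inside this cluster. Cells with fewer granule transcripts had 202 CPM in KO (182 to 223) and 188 in het (167 to 211), and cells with more had 99.9 (87.1 to 114) and 88.1 (75.6 to 102). Of cells with an Il1b UMI, 115 of 130 in KO and 102 of 125 in het also held Il1r2. The ratio in cluster 13 was 1.67 (1.40 to 2.00) within the female and 0.705 (0.590 to 0.842) within the male label, and 0.994 without the cells of highest doublet score.

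Among other classes Il1r2 was at 17.4 CPM in KO and 16.6 in het in cluster 11, at 13.4 and 7.12 in cluster 18, at 9.55 and 9.36 in cluster 14, and at 5.27 and 2.08 in cluster 12. In cluster 2 all 15 KO UMIs were in 1 cell. Of the classes not named here, cluster 7 was highest in KO at 2.73 CPM and cluster 20 in het at 2.64.

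Il18r1, the ligand-binding chain of the IL-18 receptor, was highest in gdTcells, at 294 CPM in KO (261 to 330) and 277 in het (239 to 319), a ratio of 1.06 (0.879 to 1.28). A UMI was present in 92 of 102 KO cells and 66 of 76 het cells, or in 27.5% and 26.8% after thinning, against 0.0582% of KO and 0.0357% of het cells of cluster 1. NK had 205 CPM in KO (170 to 244) and 211 in het (172 to 257), a ratio of 0.969 (0.740 to 1.27). Tcells had 40.4 CPM in KO and 43.2 in het, and ILC2s had 40.4 and 30.6, a ratio of 1.32 (0.719 to 2.43). The lymphocytes of cluster 9 held 79.2% of its UMIs in KO and 72.2% in het. In gdTcells, 53 of 62 KO cells and 48 of 54 het cells with an Il1r1 UMI also held Il18r1, so the receptor chains for IL-1 and IL-18 were seen in the same cells.

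Outside the lymphocytes Il18r1 was highest in mast cell or basophil-like cluster 12, at 9.43 CPM in KO (6.53 to 13.2) and 15.8 in het (11.8 to 20.6), a ratio of 0.598 (0.377 to 0.937). It was concentrated in the cells with an Mcpt8 UMI, at 58.4 CPM in KO (38.5 to 85.0) and 81.1 in het (57.4 to 111), against 2.23 and 5.18 in the other cells of the cluster. Within Mcpt8 cells the intervals of the libraries overlapped. Clusters 13 and 18 had 4.44 and 3.94 CPM in KO, and 3.42 and 3.17 in het.

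Il18rap, the accessory chain of the IL-18 receptor, was highest in NK, at 101 CPM in KO (77.2 to 129) and 130 in het (99.4 to 166), a ratio of 0.776 (0.537 to 1.12). A UMI was present in 33 of 54 KO cells and 28 of 52 het cells, or in 11.1% and 13.4% after thinning, against 0.0512% of KO and 0.0664% of het cells of cluster 1. Of NK cells with an Il18r1 UMI, 27 of 38 in KO and 22 of 37 in het also held Il18rap, so UMIs of both chains were common in the same cells. In gdTcells this was 19 of 92 in KO and 21 of 66 in het. Levels in gdTcells were 25.9 CPM in KO (16.7 to 38.2) and 42.1 in het (28.2 to 60.5), a ratio of 0.614 (0.345 to 1.09). ILC2s had 22.6 CPM in KO (12.4 to 37.9) and 39.9 in het (26.9 to 56.9), a ratio of 0.567 (0.278 to 1.10). Both were called lower with intervals that include 1, in classes where 7.28% (gdTcells) and 14.1% (ILC2s) of all genes were called lower.

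Neutrophil-like cluster 13 held Il18rap with little Il18r1. Il18rap was at 43.9 CPM in KO (37.7 to 50.9) and 44.7 in het (38.0 to 52.3), a ratio of 0.982 (0.788 to 1.23), in 102 of 180 KO cells and 97 of 167 het cells, while 17 KO and 10 het cells held an Il18r1 UMI. Unlike Il1b and Il1r2, Il18rap was higher in cells with more granule transcripts, at 53.9 CPM in KO (44.6 to 64.6) and 51.2 in het (41.8 to 62.0). Cells with fewer had 32.4 CPM in KO (24.8 to 41.6) and 35.8 in het (26.8 to 46.9). The intervals of the 2 divisions were apart in KO and overlapped in het. Cluster 12 had 11.4 CPM in KO and 17.8 in het, cluster 18 had 5.51 and 11.9, and Tcells had 16.1 and 17.99 from 4 and 5 UMIs. In the Mcpt8 cells of cluster 12 it was at 51.9 CPM in KO (33.3 to 77.3) and 107 in het (79.2 to 141).

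**Figure D4:**
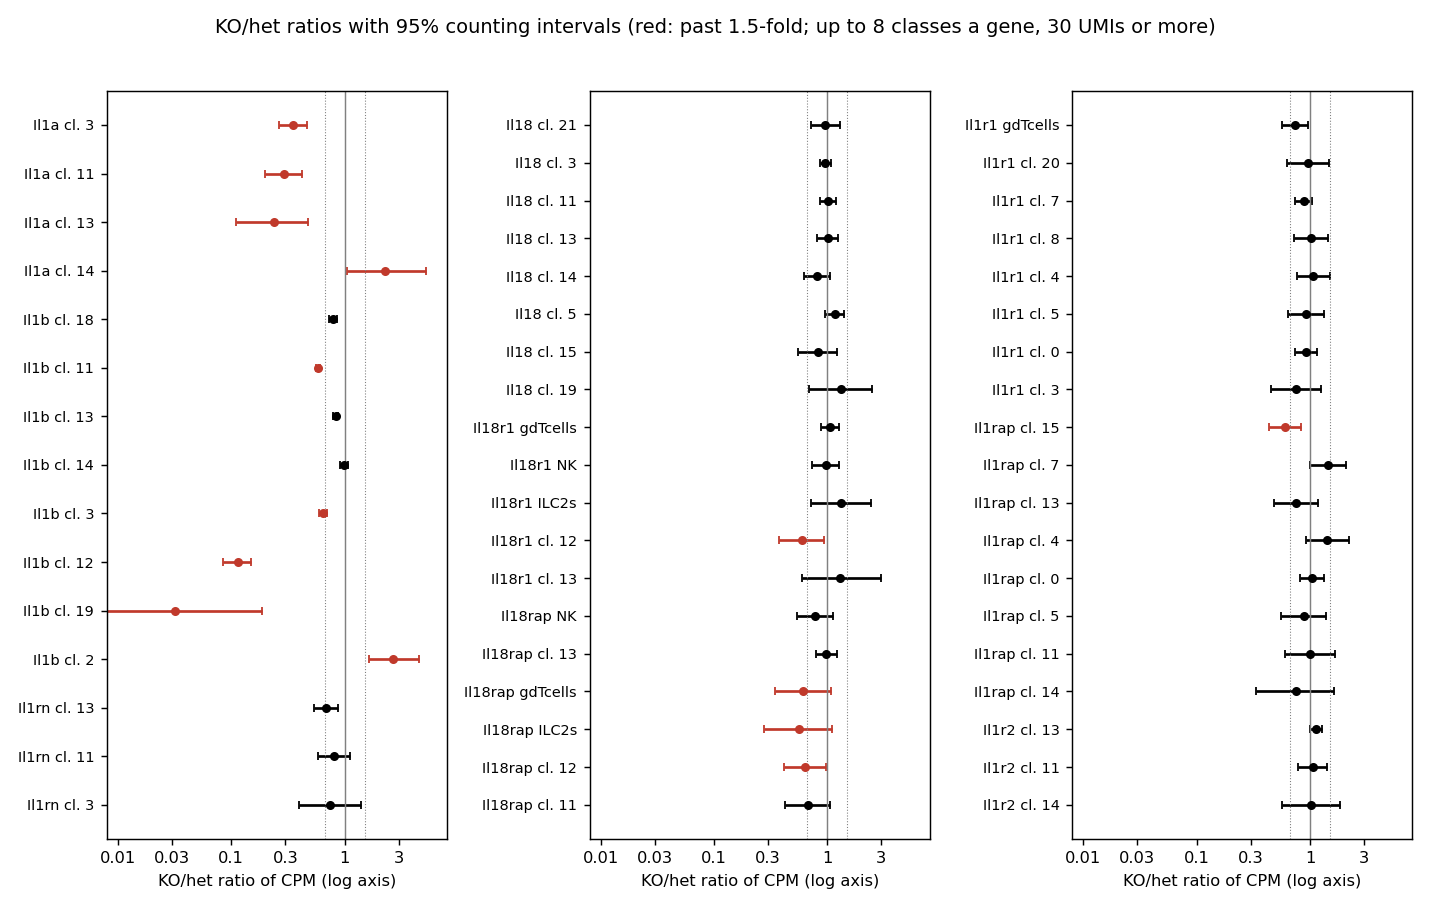
KO/het ratios of CPM (log axis) with 95% counting intervals for up to 8 classes a gene with at least 30 UMIs over both libraries, dotted lines at 1.5-fold. Il1a in clusters 3, 11 and 13 is at 0.353, 0.292 and 0.238, the Il18 points of myeloid clusters 3, 11, 13 and 14 lie between 0.813 and 1.01, and Il1b in cluster 12 is at 0.114. Red points are past 1.5-fold, and the lower bar of Il1b in cluster 19 runs past the axis.

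In the class where each is highest, 2 of the 9 members were called lower in KO, Il1a in cluster 3 and Il1rap in cluster 15. Of all genes measured, 6.91% were called lower in cluster 3 and 10.9% in cluster 15. In cluster 3 all 9 members reached 20 UMIs. There 3 were called lower (Il1a, Il1b and Il18rap), against 6.91% of all genes, and 0 higher, against 3.25%. The Il18rap call rests on 8 KO and 14 het UMIs, and its interval (0.221 to 1.55) includes 1. In cluster 11 also 3 of 9 were called lower (Il1a, Il1b and Il1r1), against 9.59% of all genes, and 0 higher, against 3.73%. The Il1r1 call there rests on 19 KO and 26 het UMIs, and its interval (0.349 to 1.25) includes 1. In cluster 12 the split was 4 lower and 2 higher of 8, against 6.79% and 16.1%. The intervals of Il1rn (0.204 to 1.26, called lower) and Il1r1 (0.767 to 5.79, called higher) include 1 there. In cluster 13 the split was 1 lower and 0 higher of 8, against 6.36% and 7.80%. In cluster 18 the split was 2 lower and 1 higher of 5, against 12.7% and 5.43%. There 13 of the 18 het UMIs of Il1rn and 9 of the 15 het UMIs of Il18rap were in 1 cell each. The intervals of the called members of that cluster, Il1rn, Il18rap and Il1r2, all include 1. The shares called are set in part by depth, and members are single genes chosen with earlier results known, so these counts are descriptions.

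The rest of the pathway was followed through 68 listed genes in macrophage-like cluster 3, cluster 11, neutrophil-like cluster 13 and monocyte-like cluster 18. In these clusters Il1r1 was low, at 3.98, 3.38, 1.23 and 0 CPM in KO and 5.29, 5.07, 0.854 and 0.792 in het. Il18r1 was at 1.92, 3.02, 4.44 and 3.94 CPM in KO and 1.81, 2.34, 3.42 and 3.17 in het. Whether the listed genes answered IL-1 or IL-18 in these cells was not tested. Genes known to be induced by IL-1 or IL-18, many of them also induced by other NF-kB signals, were called lower in 10 of 17 measured in cluster 3, 12 of 15 in cluster 11, 8 of 15 in cluster 13 and 8 of 13 in cluster 18. Their median log2 KO/het ratios were -0.70, -1.63, -0.81 and -1.02, against -0.01, -0.07, 0.02 and -0.08 over all genes. Of all genes measured, 6.91%, 9.59%, 6.36% and 12.7% were called lower in clusters 3, 11, 13 and 18. The signalling genes from Myd88 to Mapk14 had 0 of 17 called lower in clusters 3, 11 and 13. A list of 17 is too short to set 0 apart from those shares. In cluster 18 it was 2 of 15 (13.3%), near the share of all genes. A lower level of NF-kB genes in these clusters is already known from earlier analysis of the same data, so it is no independent support.

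Cxcl2, a neutrophil-attracting chemokine, was at 294 CPM in KO and 1938 in het in cluster 3, a ratio of 0.151. Its ratio was 0.134 in cluster 11 and 0.211 in cluster 13, and in cluster 18 it was at 38.6 CPM in KO and 154 in het. Nfkbia, the inhibitor of NF-kB, was at 404 CPM in KO and 1131 in het in cluster 3, and its ratios in the 4 clusters lay between 0.281 and 0.468. Tnf was called lower in each of the 4, at 89.3 CPM in KO and 158 in het in cluster 3 and 36.3 and 137 in cluster 11. Not every listed gene followed. Ccl2 was at 1577 CPM in KO and 1362 in het in cluster 3, Ccl7 at 880 and 650, and Lcn2, a neutrophil granule protein, at 606 and 52.2 in cluster 18, where neutrophil markers were also higher in KO.

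Among the inflammasome genes, Nlrp3, the sensor that starts caspase-1 activation, was called lower in each of the 4 clusters. It was at 31.7 CPM in KO and 78.7 in het in cluster 3, a ratio of 0.403 (0.344 to 0.469), and its ratio was 0.402 in cluster 11, 0.490 in cluster 13 and 0.566 in cluster 18. The adaptor Pycard was at 138 CPM in KO and 143 in het in cluster 3 and the protease Casp1 at 46.8 and 35.9, both short of 1.5-fold. Elane and Prtn3, serine proteases of granulocyte precursors, were lower in cluster 13 with ratios of 0.246 and 0.279, where the 4 progenitor markers, which include them, summed to 187 CPM in KO and 670 in het. Il18bp, which binds and blocks IL-18, was at 13.03 CPM in KO and 12.4 in het in cluster 3.

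Genes whose levels ran most like each member across the 25 classes were found among 11779 genes, by Pearson's r of log2(CPM + 1) averaged over the libraries. The points share the libraries and their depths, so r is a description. Il1b ran with Mpeg1 (0.95), Ccl6 (0.94) and Lst1 (0.92). Il1rn ran with Pilra (0.95), Hcar2 (0.95) and Pilrb2 (0.95), and Pilra was also the nearest to Il1r2 (0.87). Il1a ran with Abcc3 (0.84), Ap1b1 (0.83) and Ms4a7 (0.80), and Il18, with no class of its own, with Mt1 (0.80), Gabarap (0.80) and Rogdi (0.79). Il18r1 ran with Il2rb (0.95) and Cd226 (0.93), and Il18rap with Dok2 (0.92), Hcst (0.89) and Dgat1 (0.86). Il1r1 ran with Hbegf (0.79), Marveld1 (0.79) and Atoh8 (0.77), and Il1rap with Lgi4 (0.81), Slc35b2 (0.80) and Abtb2 (0.80).

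The order of levels was firm for few neighbours. For Il1b the intervals of neighbouring classes were apart in both libraries from cluster 11 down to cluster 19, while those of clusters 18 and 11 overlapped in het and not in KO. For Il1a the intervals of clusters 3 and 11 overlapped in both libraries. On chromosome 1 in GRCm38, Il1r2, Il1r1, Il18r1 and Il18rap lie in this order on the plus strand, from 40074079 to 40551705. Il1rl1 of the IL-33 receptor lies between Il1r1 and Il18r1, and other genes that may lie between these were not looked up. Il1r2 was highest in cluster 13, Il1r1 and Il18r1 in gdTcells, and Il18rap in NK, the class with the next highest Il18r1. Il1rn lies on chromosome 2 (24336853 to 24351494, plus strand) and Il1rap on chromosome 16 (26581704 to 26730117, plus strand). Antisense genes overlap some members, Il1bos for Il1b (12 KO and 15 het UMIs), Bco2 and Tex12 for Il18 (71 and 2 in KO, 80 and 4 in het) and Gm16894 for Il1r2 (31 in KO and 16 in het), and the sources used here do not say whether counting used strand.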

How the data were processed

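Dural meninges were measured as 1 KO and 1 het droplet library (10x Genomics). The deposited matrices hold UMI counts, for which the submitters' processing notes name Cell Ranger 3.0.2 and mm10. The sources used here do not give the gene annotation or aligner settings. The authors also deposited counts of 19347 genes in 12544 annotated cells, where 1673 values differ from the matrices, none of them a member's. Deposited metadata give the cluster, the library, a sex label and the percent of mitochondrial UMIs, as the authors computed it. A cell has the female label exactly where it holds an Xist UMI (12544 of 12544 cells), so a female cell of low depth can be labelled male.

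UMIs were summed over annotated cells by class and library and divided by all UMIs of that class (CPM). Intervals (95%) are Poisson for levels, Clopper-Pearson for shares and conditional binomial for ratios. Their code was tested on simulated data. For 0 UMIs the limit is 3 counts. A call needed 1.5-fold and 20 UMIs over both libraries. Alternatives cover ratios with at least 30 UMIs over both. Thinning to 1000 UMIs left out shallower cells, 1 KO and 1 het in cluster 3, 1 het in cluster 1, and none in the other classes whose thinned shares are given. Markers counted at 2-fold over other cells (pseudocount 5 CPM). No cell was removed as a doublet. Scrublet (scanpy 1.11.5) marked 1 KO and 3 het cells by its own threshold (0.0152% and 0.0504%), too few to have worked, so an alternative left out the 10% of highest score in each library. Other alternatives were the top cell left out, each sex label, 2 scalings, a mean over cells, the annotated table, 2-fold and no minimum. The divisions of clusters 12 and 13 were chosen after seeing the data. Genes named are members, genes of the pathway lists, or the 3 of highest correlation to a member among genes with 500 UMIs, of which 1 is not reported here. The members and lists were chosen with earlier results of these data known. Barcodes without annotation entered no comparison of classes. Python 3.11.15, numpy 2.4.6, scipy 1.17.1 and pandas 2.3.3 were used. RefSeq promoters matched all 9 members.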

Additional observations from a re-analysis of the deposited data

Results flagged for a closer look

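Some KO/het ratios lay on opposite sides of 1 with intervals that leave out 1 on both sides. None of these differences was tested, since each genotype has 1 library. Between sex labels, 53 pairs of a member and a class were compared. Il1r2 in neutrophil-like cluster 13 had a ratio of 1.67 in cells with the female label and 0.705 in cells with the male label. Il18r1 in ILC2s had a ratio of 0.360 in female and 6.06 in male cells, from 6 KO and 19 het UMIs and from 19 KO and 4 het UMIs.

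Between classes, all 9 members were compared. Il1a, Il1b and Il1rap had such a pair with both ratios past 1.5-fold and at least 20 UMIs over both libraries behind each. The share of all genes with such a pair was not computed, so these pairs are only described. Il1r1 also had intervals on both sides of 1, but its ratio of 0.736 (0.569 to 0.952) in gdTcells was not past 1.5-fold, and that of 2.79 in NK came from 18 KO and 5 het UMIs. Il1a had a ratio of 0.353 in macrophage-like cluster 3 and 2.27 in dendritic cell-like cluster 14. The interval in cluster 14 included 1 (0.890 to 6.09) with the top cell left out of both libraries. Il1b had a ratio of 0.581 in cluster 11 and 2.68 in B cell-like cluster 2, where 51 of 66 KO UMIs were in 1 cell. Il1rap had a ratio of 0.603 in cluster 15 and 2.42 in B cell-like cluster 6, from 28 KO and 11 het UMIs.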

How the results depend on the processing

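No paired analysis was possible because each genotype has 1 library. The 70 ratios with at least 30 UMIs over both libraries kept their side of 1 in 70 with the annotated table, 67 with median of ratios scaling, 68 without mitochondrial, ribosomal protein and hemoglobin genes, 63 without the top cell of each library, 58 without the cells of highest Scrublet score, 58 as a mean over cells, 57 in female and 52 in male cells. The cause of these changes was not tested. Il1b in cluster 2 turned to 0.778 without top cells, 0.654 without high Scrublet scores and 0.917 in male cells, and in cluster 7 to 0.593, 0.693 and 0.673. Il1b in cluster 5 turned to 2.11 in male cells. The male cells of clusters 2, 5 and 7 each held fewer than 20 Il1b UMIs over both libraries. Il1b in cluster 18 moved to 1.01 without high Scrublet scores, 0.862 in female and 0.685 in male cells. Il1r2 in cluster 13 moved to 0.994, 1.67 and 0.705 under the same choices. Il1rap in cluster 15 moved to 0.870 in female cells. At 2-fold, 1 member was lower in its highest class.

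Of 51 pathway genes measured in cluster 3, 13 were lower and 4 higher, and of 51 in cluster 11, 17 and 1. Of 49 in cluster 13, 14 were lower and 0 higher, and of 41 in cluster 18, 11 and 3. Of all genes, 6.91%, 9.59%, 6.36% and 12.7% were lower in clusters 3, 11, 13 and 18. Those higher were 3.25%, 3.73%, 7.80% and 5.43%. Shares over all genes were not computed for the other settings. At 2-fold, 8 were lower in cluster 3 and 11 in cluster 11. In cluster 11 0 were higher at 2-fold. In cluster 3 Il1rl2, Prtn3 and Il17a were higher at 2-fold, with ratios of 2.22, 2.04 and 3.72. With no minimum, 8 were higher in cluster 3, 2 in cluster 11, 3 in cluster 13 and 9 in cluster 18, where 18 were lower.

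Depth limits shares of cells. Thinned to 1000 UMIs, the KO and het shares in each member's highest class were 0.866% and 2.16% for Il1a, 51.6% and 54.4% for Il1b, 4.31% and 6.71% for Il1rn, 8.88% and 9.56% for Il18, 12.5% and 17.3% for Il1r1, 4.19% and 5.20% for Il1rap, 19.0% and 18.5% for Il1r2, 27.5% and 26.8% for Il18r1, and 11.1% and 13.4% for Il18rap.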

Other observations

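Barcodes without annotation, 5452 in KO and 4986 in het, with medians of 2562.5 and 2343 UMIs, gave values outside the classes. Over them Il1a was at 0.495 CPM in KO and 2.17 in het, a ratio of 0.228 (0.117 to 0.416). Il1b was at 63.5 CPM in KO and 121 in het, a ratio of 0.524 (0.495 to 0.556), and Il1rn at 1.70 and 3.91, a ratio of 0.434 (0.301 to 0.619). Il18 was at 17.4 CPM in KO and 18.1 in het, a ratio of 0.960 (0.844 to 1.09). Among the receptor genes, Il1r1 was at 8.99 CPM in KO and 7.47 in het and Il1r2 at 5.41 and 5.25. Which cells these barcodes stand for was not determined, and they can include RNA from the annotated classes.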
